A study of Mus musculus with 22 samples.

Results

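Small Pre-B cells of mice induced to express LIN28B were compared with large Pre-B cells of that genotype, the step at which a B cell precursor stops dividing and starts to rearrange its light chain genes. The members are 7 of the 22 libraries of the series, chosen by the labelled genotype and sorted stage: 3 libraries of small and 4 of large Pre-B cells from tet-LIN28B mice. The same step in littermate controls, with 3 libraries of small and 3 of large Pre-B cells, served for comparison. The tet-LIN28B mice carried 1 allele of a Flag-tagged human Lin28b cDNA behind a tetracycline operator at Col1a, driven by rtTA*m2 from Rosa26, a promoter that is active in most tissues. Controls were heterozygous for Rosa26 rtTA*m2 alone, and adult mice of both genotypes received doxycycline chow at 200 mg/kg for 10 days. Pre-B cells were sorted from lineage-depleted bone marrow as CD93+ IgM- cKIT- cells, among other gates, and forward scatter separated the large from the small. The small Pre-B libraries carry other codes in the labels than the large ones, read here as other mice, so stage cannot be told apart from mouse, deposited table and sequencing depth.

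LIN28B binds RNA in fetal progenitors, where it blocks the maturation of let-7 microRNAs and acts on mRNAs directly. Large Pre-B cells divide under signals from the interleukin 7 receptor and from the pre-B cell receptor, which pairs the new heavy chain with a surrogate light chain. As they become small Pre-B cells they leave the cell cycle, silence the surrogate light chain, express the RAG recombinase again and transcribe the kappa and lambda loci before joining a light chain.

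The libraries differed between stages in ways that touch the results. Reads on genes numbered 34470545 to 50991949 in tet-LIN28B small Pre-B and 19864000 to 30437872 in tet-LIN28B large Pre-B libraries. A summed level of 4 Y-linked genes was 6125 to 7186 normalized counts in the 3 tet-LIN28B small libraries, and 2.40, 0, 4674 and 4523 in the 4 large libraries. Xist stood at 5077 and 2861 in large replicates 1 and 2. Reads on the satellite-like gene Gm10800 were nearly absent from tet-LIN28B small libraries and made up 0.503 to 2.26% of reads in tet-LIN28B large libraries. Hspa8, a constitutive chaperone, stood at 21123 to 34981 in tet-LIN28B small and at 80211 to 267536 in tet-LIN28B large libraries, highest in large replicate 3. B lineage markers summed to 315460 to 332460 in tet-LIN28B small and 123220 to 133120 in tet-LIN28B large cells. Of these 10 markers 6 were higher (60%) and none lower, beside 24.5 and 21.2% of all genes tested. Some plasma cell transcripts were higher in large Pre-B libraries. Igha, the IgA heavy chain, stood at 16.7, 14.9 and 19.7 in tet-LIN28B small and at 2866, 10727, 8790 and 7961 in tet-LIN28B large cells, and Jchain, the J chain, at 4.38 to 8.13 and 738 to 3946. Of the 8 plasma cell markers listed, 6 were tested and 3 of these fell (50%). The 7 found in both tables had a summed level of 5137 to 6259 in tet-LIN28B small and 9110 to 24470 in tet-LIN28B large cells. Prdm1 and Xbp1 went the other way without a call, with means of 92.5 and 4222 in tet-LIN28B small against 37.8 and 3521 in tet-LIN28B large cells. Sdc1 was not called, at a log2 fold change of -0.99. Of 12 T cell markers, 11 were found in both tables and summed to 507 to 651 in tet-LIN28B small and 3551 to 4813 in tet-LIN28B large cells, with 5 of them at 0 in all 3 small libraries and 4 tested, all of which fell. Most of that sum is Lck, a kinase, with a mean of 542 in tet-LIN28B small and 3959 in tet-LIN28B large cells, while Zap70 averaged 6.66 and 112, Trac, the T cell receptor alpha constant gene, 2.86 and 24.8, and Cd4 0 and 15.5. Granulocyte or monocyte markers summed to 871 to 909 in tet-LIN28B small, 276 to 498 in tet-LIN28B large, 965 to 1877 in control small and 459 to 10437 in control large cells. The 6 of 8 macrophage markers found in both tables summed to at most 31.7 in tet-LIN28B small and 76.9 in tet-LIN28B large cells. The part of these transcripts in the results was not tested.

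Changes between the stages varied with transcript length. The median log2 fold change of small over large Pre-B cells was 4.37 among 83 tested genes with transcripts under 300 bases, 4.05 among 494 genes of 300 to 500 bases and 1.68 among 695 genes of 500 to 750 bases in tet-LIN28B cells. It was 0.16 among 1714 genes of 1000 to 1500 bases and between -0.06 and -0.19 in each longer class. Control cells had medians of 4.74 and 3.94 in the 2 shortest classes. The shorter classes include the variable segments of the receptor genes, described below. Lengths are given beside many of the short transcripts. A second fit, chosen after the data were seen, corrects each library for transcript length and GC content over all tested genes, segments included.

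**Figure D1:**
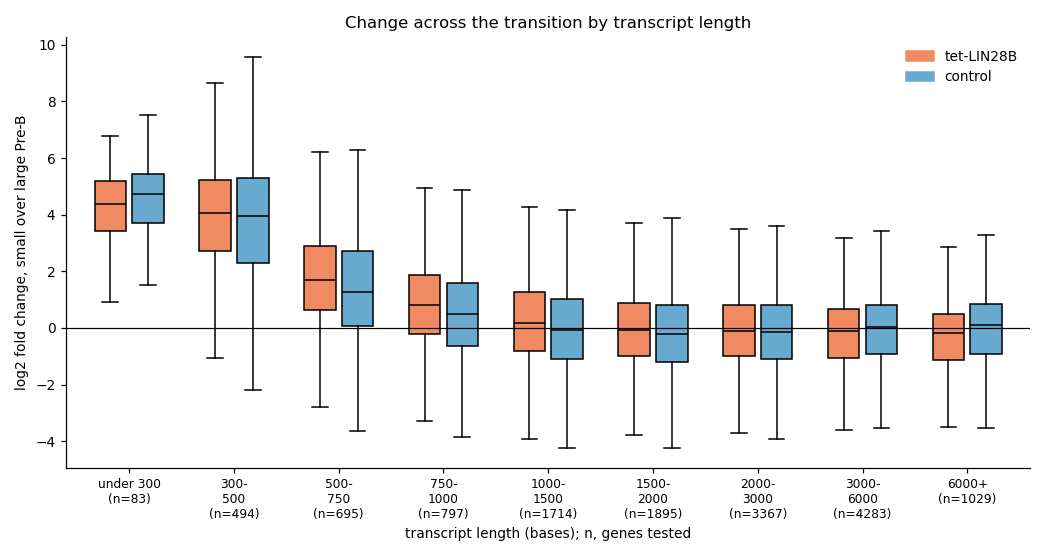
Log2 fold change of small over large Pre-B cells (vertical axis) for tested genes in classes of transcript length in bases (horizontal axis), in tet-LIN28B and control cells. Boxes span the quartiles of a class around its median, and whiskers the genes apart from outlying ones, which are not drawn. The median was 4.37 in tet-LIN28B and 4.74 in control cells under 300 bases.

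Values are normalized counts brought to 1 scale over all 13 libraries. A gene was called where its limma adjusted p was under 0.05 and its change at least 2-fold. Of 14429 genes tested in tet-LIN28B cells, 3532 were called higher in small Pre-B cells (24.5%) and 3052 lower (21.2%), 6584 in all (45.6%). The stages did not overlap for 9417 genes (65.3%). Changes of at least 4-fold were called for 1901 genes in the higher (13.2%) and 1639 in the lower direction (11.4%), and of at least 8-fold for 1067 (7.39%) and 1012 (7.01%). Scaling each library to the same total moved the median of all genes up by 0.261 on the log2 scale and gave 4320 higher and 2397 lower genes. With the values as deposited, where each stage keeps its own scale, the median moved by 1.33 and 8968 genes were higher and 1088 lower. Control cells were tested on the same 14429 genes, which had been filtered by their level in tet-LIN28B libraries. In control cells 3395 genes were higher (23.5%) and 3130 lower (21.7%), 6525 in all (45.2%). Both transitions called 2826 genes higher, which is 80.0% of the tet-LIN28B and 83.2% of the control calls. They called 2550 genes lower, 83.6% and 81.5% of the calls, and 2 genes in opposite directions.

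Lin28b itself (chr10:45376617-45486314) served to check the labels. Reads of the human transgene were counted here only as far as they align to the mouse gene. Lin28b stood at 139.9, 49.1 and 75.0 normalized counts in tet-LIN28B small and at 63.7, 94.0, 264 and 100.2 in tet-LIN28B large cells. The ranges overlap, and the log2 fold change was -0.48 ± 0.52 (SE, adjusted p = 0.438). Controls had 0 in all 3 small libraries, where a floor of 3 reads allows up to 1.93, and 15.1, 24.9 and 48.4 in large Pre-B cells. Every tet-LIN28B library lay above every control library of its stage.

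**Figure D2:**
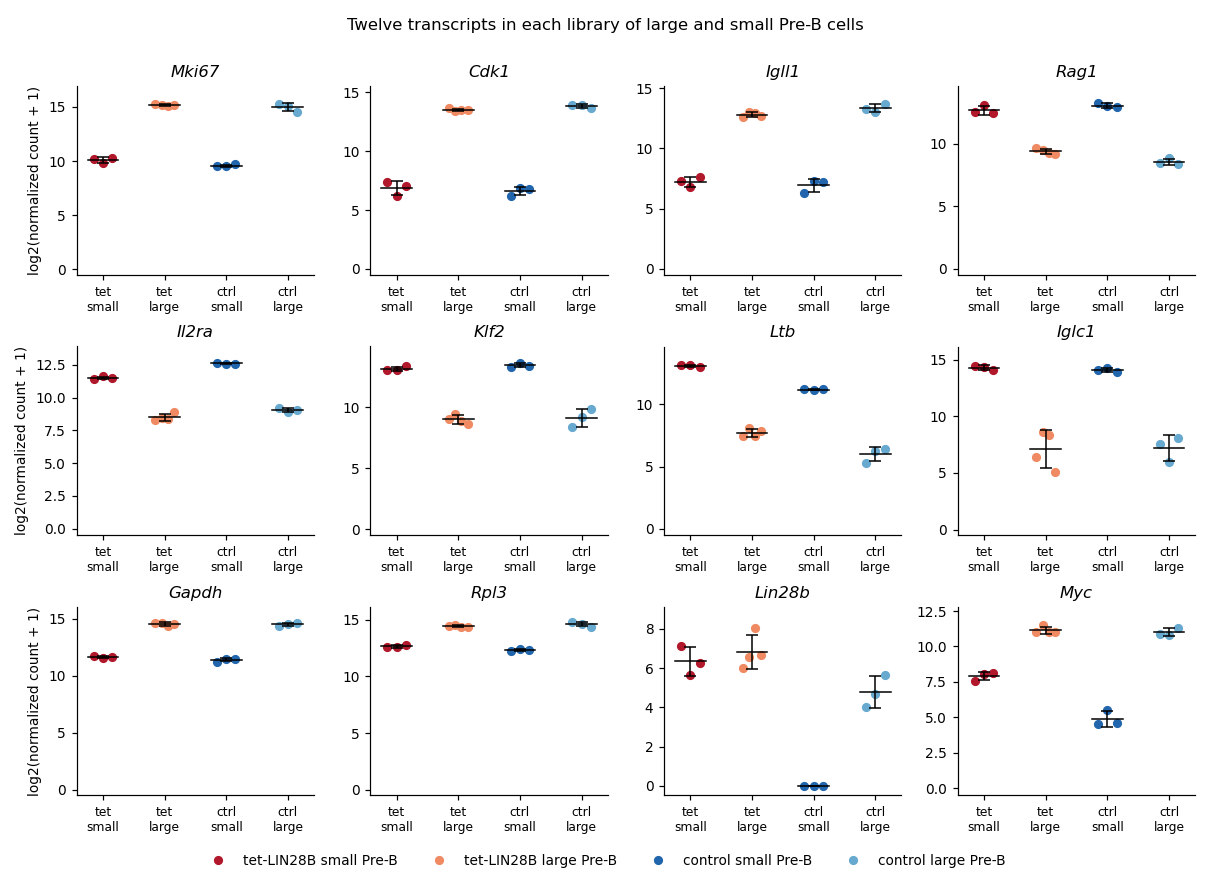
Levels of 12 transcripts as log2(normalized count + 1) in each library (points), with group means and SD, for tet-LIN28B small, tet-LIN28B large, control small and control large Pre-B cells. Mki67, Cdk1, Igll1, Gapdh, Rpl3 and Myc were lower and Rag1, Il2ra, Klf2, Ltb and Iglc1 higher in small Pre-B cells of both genotypes, and Lin28b was at 0 in the 3 control small libraries.

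Nearly all mitosis and replication genes fell. Of 84 tested mitosis genes, 82 fell (97.6%) and none rose, beside 21.2 and 24.5% of all genes. Their median log2 fold change was -4.72, beside 0.07 over all genes tested. Of 55 DNA replication genes, 54 fell (98.2%) and none rose, with a median of -3.88. The counts were 83 and 54 with the correction for length and GC content. In sorted bulk cells, fewer cells of a kind and less RNA per cell cannot be told apart.

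Mki67, the proliferation antigen (chr7:135689784-135716450), stood at 1155, 878 and 1227 normalized counts in tet-LIN28B small and at 39669, 37566, 34337 and 35986 in tet-LIN28B large cells. The groups lay 33.9-fold apart without overlap, and the log2 fold change was -5.10 ± 0.14 (SE, adjusted p = 9.84e-09). Cdk1, the kinase that drives entry into mitosis, had 162, 73.4 and 130.2 in tet-LIN28B small and 12627, 10722, 11707 and 11590 in tet-LIN28B large cells, 95.7-fold less. Plk1, a kinase of the spindle and of mitotic exit, had 186, 198 and 222 in tet-LIN28B small against 14699, 15396, 11385 and 13926 in tet-LIN28B large cells. Kif11, the motor that keeps spindle poles apart, had 351, 275 and 288 in tet-LIN28B small against 24633, 22561, 25880 and 26903 in tet-LIN28B large cells. These 4 genes separated the stages without overlap, as did 65.3% of all genes tested. Aurkb, a kinase of chromosome segregation, fell 35.4-fold, and Depdc1b by 6.77 on the log2 scale. Outside the list, Ccnf, cyclin F, fell 142-fold, to 121 to 202 in tet-LIN28B small against 18332 to 27614 in tet-LIN28B large cells, and Esco2, an acetyltransferase of sister chromatid cohesion, by 6.74. The 2 mitosis genes not called were Ube2s at -0.78 and Pttg1, encoding securin, at 0.91. The transcripts of Pttg1 are under 750 bases long, and its value was -0.28 after the length correction.

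Among replication genes, Mcm6, a subunit of the helicase that unwinds origins, stood at 1986, 1621 and 1981 normalized counts in tet-LIN28B small and at 49239, 48051, 44058 and 43860 in tet-LIN28B large cells. Mcm5, of the same helicase, fell by 5.22 on the log2 scale, Pola1, the catalytic subunit of DNA polymerase alpha, by 5.40, and Rrm1, of ribonucleotide reductase, by 4.23. Top2a, the topoisomerase that untangles sister chromatids, had 371 to 671 in tet-LIN28B small and 51459 to 56923 in tet-LIN28B large cells. Ticrr, which is needed to fire origins, had the lowest log2 fold change of the list at -6.95 ± 0.23 (SE). Rpa3 was the only replication gene not called, at 0.30 with overlap, and its transcripts of 670 bases gave -1.62 after the length correction. Ube2s, Pttg1 and Rpa3 were named after their values were seen.

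Known cell cycle motifs were searched in the promoters of these genes, and 4 windows that hold one are shown, from genes whose values are given above. RefSeq windows for GRCm38.p6, from 250 bases before to 50 after the annotated start, matched 9691 tested genes. The cell cycle homology region, searched as TTTGAA on both strands, was in 64.3% of 70 mitosis windows, 18.2% of 44 replication windows and 12.4% of all windows. The E2F motif, searched as TTTGGCGC, TTTGCCGC, TTTCGCGC or TTTCCCGC on both strands, was in 31.8% of the replication windows, 11.4% of the mitosis windows and 4.24% of all windows. A match describes the sequence and says nothing of binding in these cells. Matches to either motif are in capitals in the windows of Plk1 (chr7:122159185-122159484, plus strand), Kif11 (chr19:37376132-37376431, plus strand), Cdk1 (chr10:69352863-69353162, minus strand) and Mcm6 (chr1:128359656-128359955, minus strand), written 5′ to 3′ in the direction of the gene. Of these 4 windows only that of Cdk1 holds both motifs.
Plk1: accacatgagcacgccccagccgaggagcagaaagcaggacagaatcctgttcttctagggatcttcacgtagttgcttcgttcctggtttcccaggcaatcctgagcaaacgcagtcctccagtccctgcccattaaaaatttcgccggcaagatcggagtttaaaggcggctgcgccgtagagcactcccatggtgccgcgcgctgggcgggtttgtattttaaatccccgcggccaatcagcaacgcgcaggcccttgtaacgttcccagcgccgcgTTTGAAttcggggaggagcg
Kif11: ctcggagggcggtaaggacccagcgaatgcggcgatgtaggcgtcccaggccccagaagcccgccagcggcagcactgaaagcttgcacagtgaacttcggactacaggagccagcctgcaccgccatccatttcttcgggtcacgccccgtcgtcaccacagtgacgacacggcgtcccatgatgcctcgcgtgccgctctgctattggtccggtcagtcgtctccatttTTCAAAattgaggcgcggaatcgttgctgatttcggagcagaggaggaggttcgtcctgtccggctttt
Cdk1: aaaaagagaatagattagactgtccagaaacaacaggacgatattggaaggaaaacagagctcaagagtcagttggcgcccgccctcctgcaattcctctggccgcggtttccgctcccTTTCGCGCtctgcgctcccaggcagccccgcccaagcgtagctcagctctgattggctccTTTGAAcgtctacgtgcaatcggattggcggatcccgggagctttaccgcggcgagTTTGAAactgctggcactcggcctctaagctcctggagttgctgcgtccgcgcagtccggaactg
Mcm6: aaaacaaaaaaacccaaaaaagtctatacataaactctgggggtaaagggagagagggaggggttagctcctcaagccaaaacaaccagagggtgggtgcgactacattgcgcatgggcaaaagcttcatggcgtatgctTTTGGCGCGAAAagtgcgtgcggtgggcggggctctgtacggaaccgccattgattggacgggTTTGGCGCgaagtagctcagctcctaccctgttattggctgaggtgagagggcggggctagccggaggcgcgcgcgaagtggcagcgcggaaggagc
Plk1 holds TTTGAA at 30 bases after the start, and Kif11 the reverse complement TTCAAA at 19 bases before it, counted as an offset of -19. Cdk1 holds 3 matches, of which TTTGAA lies at offsets of -71 and -15. Mcm6 holds 3 E2F matches, of which 2 overlap.

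Of 30 genes tested that control G1, 5 rose (16.7%) and 14 fell (46.7%), beside 24.5 and 21.2% of all genes, with a median log2 fold change of -0.85. Ccnd2, a D cyclin, stood at 539, 320.2 and 439 normalized counts in tet-LIN28B small and at 2933, 4887, 5010 and 3219 in tet-LIN28B large cells. Ccnd3, the D cyclin required for the expansion of large Pre-B cells, fell by 1.47, Cdk4 by 2.21 and Cdk6 by 2.48 on the log2 scale. E2f8, a repressor of E2F target genes, fell by 6.16. Btg1, an antiproliferative factor, stood at 47294, 51297 and 46338 in tet-LIN28B small against 1907, 2330, 3691 and 2225 in tet-LIN28B large cells, 19.0-fold more. Its paralog Btg2 rose by 2.04 ± 0.12 (SE). Cdkn1b, the inhibitor p27, had 514, 432 and 849 in tet-LIN28B small against 387, 147, 576 and 319 in tet-LIN28B large cells. The groups of Cdkn1b overlapped and it was not called (log2 fold change 0.84, adjusted p = 0.109), except without large replicate 3, at 1.12 (adjusted p = 0.0265), with the same total and after the length correction.

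Of 26 genes of the pre-B cell receptor and its signalling, 5 rose (19.2%) and 3 fell (11.5%), shares below those of all genes, and the 3 that fell are the surrogate light chain genes. Igll1, encoding lambda5, stood at 152, 109 and 191 normalized counts in tet-LIN28B small and at 6083, 8260, 7687 and 6443 in tet-LIN28B large cells, 47.3-fold less. Its partner Vpreb1 had 93.3, 125 and 132 in tet-LIN28B small against 1815, 2825, 2543 and 1808 in tet-LIN28B large cells, and Vpreb2 fell by 5.67 ± 0.60 on the log2 scale (SE). Transcripts of Igll1, Vpreb1 and Vpreb2 measure 870, 766 and 759 bases, in length classes whose median change was upward. Cd79a, a signalling chain of the receptor, had 77348, 77865 and 74863 in tet-LIN28B small against 12608, 13448, 15581 and 14397 in tet-LIN28B large cells. Bank1, a scaffold of antigen receptor signalling, rose 6.26-fold and Grb2, an adaptor, 4.03-fold. Vpreb3, which is not part of the surrogate light chain and has transcripts of 677 bases, rose by 2.36, or by 0.99 after the length correction, under the 2-fold rule.

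Of 21 genes of interleukin 7 signalling, 7 rose (33.3%) and 6 fell (28.6%), beside 24.5 and 21.2% of all genes. Il7r, the receptor chain, had 5911, 7267 and 5567 normalized counts in tet-LIN28B small against 7572, 6138, 8166 and 8847 in tet-LIN28B large cells. The groups overlapped and the log2 fold change was -0.29 ± 0.15 (SE, adjusted p = 0.117), a sign that turned under quantile normalization and with values as deposited. Il2ra, encoding CD25, which marks small Pre-B cells, stood at 2737, 3148 and 2849 in tet-LIN28B small against 306, 352, 332 and 466 in tet-LIN28B large cells, a rise of 3.01 ± 0.17 (SE). Control small cells had 6071 to 6442, and the difference of the transition between genotypes did not pass the adjusted threshold (adjusted p = 0.622). Socs2, a STAT5 target, fell to 71.9, 54.1 and 93.6 in tet-LIN28B small cells, against 847, 911, 851 and 449 in tet-LIN28B large cells. Socs1, an inhibitor of cytokine signalling, rose 17.6-fold and the kinase Pim1 6.03-fold. Cish, a STAT5 target as well, stood at 37.3 to 69.7 in tet-LIN28B small and 8.41 to 54.7 in tet-LIN28B large cells with overlap and was not called (log2 fold change 0.69). Kit had 20.5, 13.1 and 1.64 in tet-LIN28B small against 42.0, 72.9, 33.8 and 49.5 in tet-LIN28B large cells, low in both stages of this cKIT- gate. It was called (log2 fold change -2.39, adjusted p = 0.0133), but not without the 2 large libraries that hold almost no Y-linked reads (adjusted p = 0.0657).

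Of 29 tested genes of recombination and light chain opening, 8 rose (27.6%) and 5 fell (17.2%), near the shares of all genes, with a median log2 fold change of 0.46. Rag1, the recombinase subunit that cuts DNA, stood at 5889, 8560 and 5416 normalized counts in tet-LIN28B small against 788, 711, 595 and 585 in tet-LIN28B large cells, a rise of 3.29 ± 0.18 (SE, adjusted p = 5.60e-07). Its partner Rag2 had 4746, 4547 and 4413 in tet-LIN28B small against 4267, 3089, 5014 and 4192 in tet-LIN28B large cells with overlap, a change of 0.16 ± 0.16 (SE). Foxo1, a transcription factor that activates both Rag genes, had 14908, 15413 and 15666 in tet-LIN28B small against 2561, 2619, 1995 and 1633 in tet-LIN28B large cells. Dntt, the polymerase TdT that adds bases to heavy chain joints, fell 18.3-fold to 48.8, 54.1 and 93.6 in tet-LIN28B small cells, against 852, 1838, 1187 and 911 in tet-LIN28B large cells. Irf4, a factor that acts at the light chain loci, had overlapping groups at 6061 to 8275 in tet-LIN28B small and 6473 to 10794 in tet-LIN28B large cells. Its log2 fold change of -0.23 turned positive with the same total, quantile normalization, the length correction or the values as deposited. Ikzf3, encoding Aiolos, was called at 1.01 ± 0.22 (SE), at the edge of the 2-fold rule, and 3 of the 7 fits that leave out 1 library (large replicates 3 and 4, small replicate 3) lost the call, with values down to 0.87. Bcl6 had overlapping groups and a change of 0.29 ± 0.28 (SE). Cxcr4, the receptor for CXCL12, had 1515 to 1655 in tet-LIN28B small and 895 to 1270 in tet-LIN28B large cells without overlap, a change of 0.61 under the 2-fold rule.

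Light chain constant genes, 4 tested, were all called higher. Iglc1, a lambda constant gene (chr16:19061752-19062071), stood at 22868, 21215 and 17630 normalized counts in tet-LIN28B small against 84.1, 399, 329 and 33.8 in tet-LIN28B large cells, 97.2-fold more. The lambda segment Iglv1 rose 95.4-fold and the kappa constant gene Igkc 10.5-fold. The 107 kappa variable segments listed had a summed level of 17270 to 19897 in tet-LIN28B small and 92.5 to 1166 in tet-LIN28B large cells, and of 14649 to 16577 in control small and 171 to 1039 in control large cells. The 113 heavy chain variable segments summed to 28430 to 31342 in tet-LIN28B small and 656 to 2535 in tet-LIN28B large cells. In both sets the ranges lie apart. A filter on low values let in 98 kappa and 101 heavy chain segments, of which 96 and 81 reached its minimum of 10 in fewer than 3 large libraries and so passed only through the small ones. That route fixes an upward direction, so the segments are described by their sums. In 28 kappa segments that passed, the 4 tet-LIN28B large libraries held no read. Ighm, the heavy chain constant gene of Pre-B cells, changed by 0.51 ± 0.15 (SE) and was not called.

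Variable segments are annotated with a median length of 358 bases for kappa and 351 bases for the heavy chain, within a length class whose median change was upward. The segments count in that class themselves, and the length correction was fitted on all tested genes, segments included. Transcripts of Iglc1, Iglv1 and Igkc measure 454, 391 and 532 bases. The corrected log2 fold changes were 4.31 for Iglc1 and 3.56 for Iglv1, and all 4 tested light chain constant genes stayed called. With the correction, the median over tested segments went from 6.08 to 2.23 for kappa and from 4.75 to 1.01 for the heavy chain. These medians carry the upward direction fixed by the filter, and the segment sums are not corrected for length. Because the segments shaped the correction, the drop in their medians does not measure how far length accounts for their change. The large libraries also hold the plasma cell transcripts given above, whose variable segments cannot be told apart from those of Pre-B cells.

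Most quiescence genes rose. Of 21 quiescence and Krüppel-like genes, 14 rose (66.7%) and 2 fell (9.52%), beside 24.5 and 21.2% of all genes. The median log2 fold change was 1.83, and 14 rose and 2 fell after the length correction. Klf2, a factor that holds lymphocytes in quiescence, stood at 8734, 8358 and 10615 normalized counts in tet-LIN28B small and at 522, 707, 469.8 and 403 in tet-LIN28B large cells. Slfn2, a Schlafen gene needed for lymphocyte quiescence, rose 10.5-fold and Zfp36l1, which promotes decay of cell cycle mRNAs, 7.77-fold. Klf13 rose by 3.17, or by 0.60 after the length correction, which is not a call. That correction used 599 bases, the median of its annotated transcripts, and which of them these cells express was not tested. Klf10 fell by 2.00. Of 27 AP-1 and immediate early genes 14 rose (51.9%) and 6 fell (22.2%), beside 24.5 and 21.2% of all genes. Jund, an AP-1 subunit, had 34687, 31860 and 40266 in tet-LIN28B small against 460.0, 862, 450.3 and 325 in tet-LIN28B large cells, 67.9-fold more. Bcl3, a nuclear cofactor of NF-kB outside these lists, had 1628, 1585 and 1939 in tet-LIN28B small against 32.4, 40.4, 36.4 and 13.5 in tet-LIN28B large cells, 55.9-fold more.

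Of 36 immature and mature B surface genes, 18 rose (50%) and 4 fell (11.1%), beside 24.5 and 21.2% of all genes. Ltb, lymphotoxin beta (chr17:35194507-35196305), stood at 8876, 8769 and 8043 normalized counts in tet-LIN28B small and at 173, 276, 170.5 and 223 in tet-LIN28B large cells, 40.7-fold more. Ms4a1, encoding CD20, had 12872, 8942 and 8033 in tet-LIN28B small against 395, 381, 1087 and 739.6 in tet-LIN28B large cells. Cd74, the invariant chain of MHC class II, had 58286, 58969 and 59343 in tet-LIN28B small against 6190, 10347, 5419 and 7816 in tet-LIN28B large cells. All 3 separated the stages without overlap, as did 65.3% of all genes tested. Fcrl1, an Fc receptor-like protein, rose 8.21-fold and Ighd, the IgD heavy chain, 2.46-fold. Cd24a, a precursor surface protein, fell by 1.39 and Spn, encoding CD43, by 1.51, or by 0.97 after the length correction, under the 2-fold rule. Cd44 had a change of 0.28 ± 0.13 (SE, adjusted p = 0.0801). Cd5, which marks B-1a cells, had 9.84, 23.0 and 22.4 in tet-LIN28B small and 82.9, 87.0, 15.6 and 106 in tet-LIN28B large cells. It was called at -1.72 (adjusted p = 0.046), but the groups overlap through large replicate 3. The call was lost in 6 of the 7 fits that each leave out 1 library, all but that without large replicate 3, with adjusted p up to 0.153.

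Of 30 tested transcription factors of the lineage, 7 rose (23.3%) and 2 fell (6.67%), beside 24.5 and 21.2% of all genes, with a median of 0.27. Ebf1, which specifies the B lineage, had 21406, 22642 and 23614 normalized counts in tet-LIN28B small against 10536, 10507, 9852 and 9188 in tet-LIN28B large cells. Pou2f2, encoding OCT2, rose 9.35-fold, Hhex 4.28-fold and the chromatin organizer Satb1 2.94-fold. Lef1, a factor of dividing precursors, fell by 1.41, or by 0.89 after the length correction, under the 2-fold rule.

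Of 48 interferon response genes 15 rose (31.25%) and 2 fell (4.17%), beside 24.5 and 21.2% of all genes, with a median of 0.76. Isg15, a ubiquitin-like modifier with transcripts of 756 bases, rose 6.68-fold. The 2 that fell were Ifit2, by 1.62, and Lgals3bp, by 1.75. Ifi27l2a, with transcripts of 463 bases, rose by 3.11, or by 0.36 after the length correction, which is not a call. Of 13 BCL2 family genes, 6 rose (46.2%) and 4 fell (30.8%), beside 24.5 and 21.2% of all genes. Bmf, a proapoptotic member, had 832, 1037 and 864 normalized counts in tet-LIN28B small and 94.9, 90.5, 87.2 and 84.4 in tet-LIN28B large cells. The survival genes Mcl1 and Bcl2 moved apart, Mcl1 7.30-fold up, and Bcl2 down to 19.2 to 26.1 in tet-LIN28B small, against 70.3 to 166 in tet-LIN28B large cells. Tmsb10, an actin-binding peptide with transcripts under 600 bases, had 15101 to 20531 in tet-LIN28B small against 28.8 to 427 in tet-LIN28B large cells. Isg15 and Tmsb10 lie in length classes whose median change was upward, and their values here are not corrected for length.

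**Figure D3:**
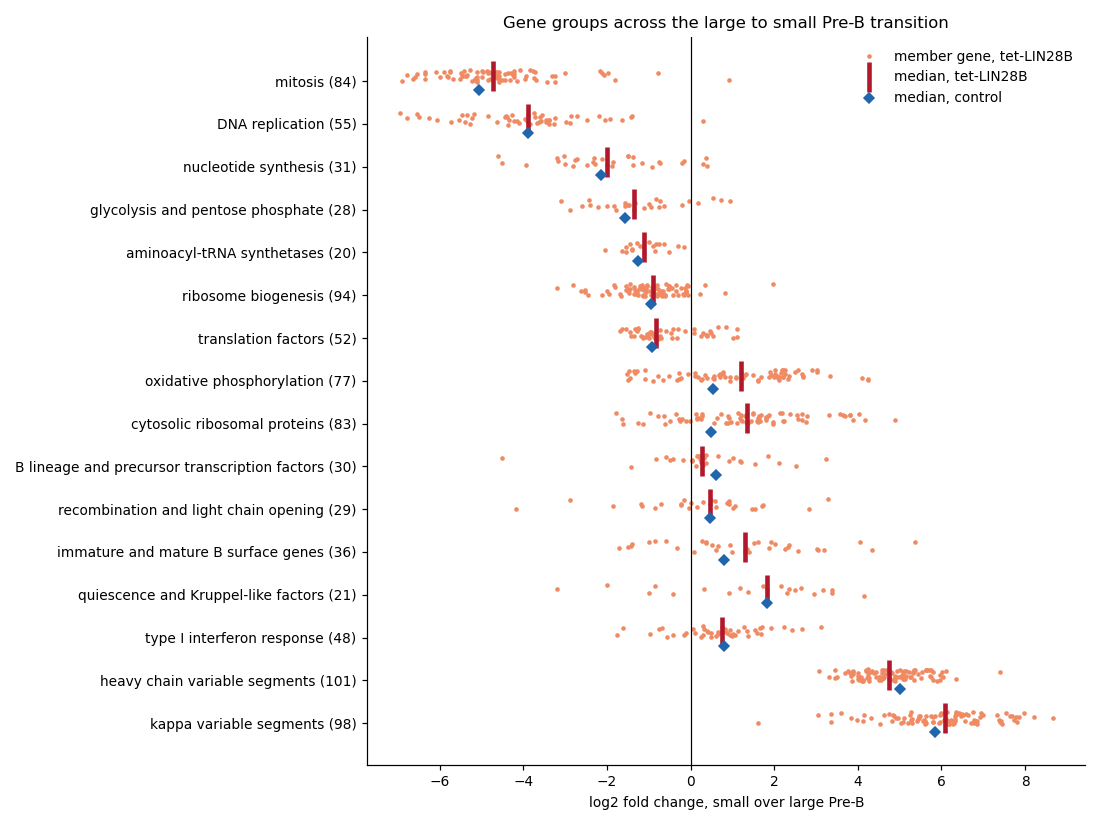
Log2 fold changes of small over large Pre-B cells (horizontal axis) for the tested members (points) of 16 gene groups in tet-LIN28B cells, with the group medians of tet-LIN28B and, as diamonds, of control cells. The median was -4.72 for mitosis and 1.83 for quiescence and Krüppel-like genes in tet-LIN28B cells, and most variable segments passed the filter only through small cells.

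Biosynthesis genes fell in part. Of 31 nucleotide synthesis genes 23 fell (74.2%) and none rose, beside 21.2 and 24.5% of all genes, with a median log2 fold change of -1.99. Mthfd1, of the folate cycle that feeds purine synthesis, stood at 272, 312 and 244 normalized counts in tet-LIN28B small and at 6320, 7344, 5738 and 5961 in tet-LIN28B large cells. Shmt1, of the same cycle, fell 24.6-fold. Of 28 glycolysis and pentose phosphate genes 15 fell (53.6%) and none rose. Gapdh had 3487, 3106 and 3194 in tet-LIN28B small against 25436, 26085, 20776 and 24394 in tet-LIN28B large cells, and Ldha fell by 3.09. Of 20 aminoacyl-tRNA synthetases 12 fell (60%) and none rose, and 6 fell after the length correction. Of 94 ribosome biogenesis genes 42 fell (44.7%) and 1 rose (1.06%), and 24 and 1 after the correction. Ncl, nucleolin, had 6124, 5768 and 5632 in tet-LIN28B small against 33781, 32650, 43618 and 35466 in tet-LIN28B large cells. Of 29 genes of the unfolded protein and ATF4 responses 10 fell (34.5%) and 4 rose (13.8%), beside 21.2 and 24.5% of all genes. Psat1, of serine synthesis, fell 14.4-fold. Of 52 translation factors 16 fell (30.8%) and 3 rose (5.77%). After the correction 11 fell and 5 rose, while 2883 of 14357 genes fell and 3253 rose. The corrected share of translation factors that fell is thus near that of all genes.

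Cytosolic ribosomal protein transcripts, 83 tested, gave 51 higher (61.4%) and 5 lower (6.02%) in tet-LIN28B cells, beside 24.5 and 21.2% of all genes. Their median was 1.35 in tet-LIN28B cells. Controls gave 25 higher and 9 lower with a median of 0.48. Of 65 members under 1000 bases 44 rose and 1 fell, and of 18 longer ones 7 rose and 4 fell. After the length correction 15 rose and 17 fell, with a median of -0.10. Rps27, at 345 bases, had 6186, 5788 and 7326 normalized counts in tet-LIN28B small and 128, 264, 471 and 132 in tet-LIN28B large cells. Rpl37a, at 558 bases, rose by 4.04. Rpl3, at 1351 bases, had 6068, 6200 and 6987 in tet-LIN28B small against 22454, 23182, 21395 and 21057 in tet-LIN28B large cells, and Rpsa, at 1768 bases, fell by 1.63. Oxidative phosphorylation genes split in the same way, with 41 of 77 higher (53.2%) and 9 lower (11.7%). Of 49 short members 37 rose and none fell, and of 28 longer ones 4 rose and 9 fell. Cox7c, at 540 bases, rose 16.8-fold, and Atp5b, at 1916 bases, fell by 1.51. After the length correction 12 rose and 14 fell. Clustered histone genes, 52 tested and mostly short, gave 17 higher (32.7%) and 11 lower (21.2%), beside 24.5 and 21.2% of all genes. After the correction 6 were higher and 27 lower. Hist1h1b, a linker histone of S phase with transcripts of 743 bases, fell by 2.79, or by 3.89 after the correction, and Hist1h2bc, at 1156 bases, rose by 2.83, or by 2.68 after the correction.

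Of 33 tested fetal genes and let-7 targets, 4 rose (12.1%) and 7 fell (21.2%), beside 24.5 and 21.2% of all genes, with a median of -0.23. Igf2bp3, an RNA-binding protein of fetal cells, stood at 409, 279.8 and 316 normalized counts in tet-LIN28B small and at 471, 359, 749.6 and 812 in tet-LIN28B large cells, with overlap (log2 fold change -0.77, adjusted p = 0.0437, under the 2-fold rule). Without the 2 large libraries that hold almost no Y-linked reads it was -1.24 and called. Arid3a, a transcription factor of lymphocyte precursors, had 3366, 2407 and 3002 in tet-LIN28B small against 5161, 5385, 2059 and 3372 in tet-LIN28B large cells, with a change of -0.36 ± 0.31 (SE) that turned positive without the same 2 libraries, after the length correction and with values as deposited. Arid3b, its paralog, had 0.76 ± 0.23 (SE) without overlap. Hmga1, a chromatin protein with transcripts of 917 bases, changed by 0.43 ± 0.13 (SE), or by -1.16 after the length correction. Irs2, an adaptor of insulin signalling, rose by 2.37, and Tut4, the uridylyltransferase recruited by LIN28 proteins, by 1.23.

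Myc, the growth-promoting transcription factor (chr15:61985341-61990361), fell at this step but less far than in controls. It stood at 191, 264 and 283 normalized counts in tet-LIN28B small and at 2043, 2872, 2104 and 2049 in tet-LIN28B large cells. Control cells had 22.0, 45.6 and 23.2 in small and 1893, 1787 and 2536 in large Pre-B cells. The large cells of both genotypes overlapped, and the small cells did not. The log2 fold change was -3.20 ± 0.19 (SE) in tet-LIN28B and -6.11 ± 0.32 (SE) in control cells. In the fit of all 13 libraries the difference was 2.91 ± 0.37 (SE, adjusted p = 0.0179), and Myc was the only 1 of 16174 genes called (0.00618%), with 1257 at an unadjusted p under 0.05. On recovered reads, edgeR called 1 gene and DESeq2 69, Myc among them in both. The call on Myc was lost in 7 of the 13 fits that each leave out 1 library: tet-LIN28B small replicates 2 and 3, tet-LIN28B large replicates 1 and 3, control small replicates 1 and 3, and control large replicate 3. Its value stayed between 2.73 and 3.24 in these 13 fits, with adjusted p between 0.00109 and 0.113. Of the other MYC network genes, Mxd4 and Mnt, which compete with MYC for MAX, rose by 2.47 and 2.55. Mxd3, a family member of dividing cells, fell by 5.23 and Mycn by 2.17.

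The other genes with the smallest p for the difference had an adjusted p of 0.166. March1, a ubiquitin ligase of MHC class II, stood at 489, 552 and 400.5 normalized counts in tet-LIN28B small and at 28.8, 14.9, 24.7 and 33.8 in tet-LIN28B large cells, a rise of 4.22, beside 0.87 in controls. Pcyt1b, of phosphatidylcholine synthesis, had 0, 0 and 0.547 in tet-LIN28B small and 120.1, 128, 69.0 and 125 in tet-LIN28B large cells, and 23.6, 35.4 and 11.6 in control small cells. Id3, an inhibitor of E proteins, had 5414, 4537 and 4803 in tet-LIN28B small against 3591, 4140, 3335 and 4120 in tet-LIN28B large cells, a change of 0.38 in tet-LIN28B and -0.63 in control cells. Mthfd2, the mitochondrial folate enzyme, fell by 2.31 in tet-LIN28B and by 3.44 in control cells. Sdc1, encoding CD138, changed by -0.99 in tet-LIN28B and 0.38 in control cells, and Fchsd2 rose by 1.99 in tet-LIN28B and 3.22 in control cells. Ankib1 had a difference of -1.39. Lin28b and Sh2d1b1 had no read in the control small libraries, so their fitted differences depend on the pseudocount and are not given. Rag1 had a difference of -1.23 ± 0.27 (SE, adjusted p = 0.3), and Slfn8, a Schlafen gene, -1.61 (adjusted p = 0.308). For ribosomal proteins, 46 of 83 members had an unadjusted p under 0.05 for the difference and 82 were positive, with a median of 0.73 beside 0.08 over all genes and 0.42 over genes of 500 to 750 bases. Over all 16174 genes, 1257 had an unadjusted p under 0.05 and 9015 were positive. Other lists shifted upward too, with 75 of 77 oxidative phosphorylation genes positive (median 0.51) and 42 of 53 clustered histone genes (median 0.55). Of 55 DNA replication genes 20 were positive, with a median of -0.15. None of the 83 passed the adjusted threshold.

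**Figure D4:**
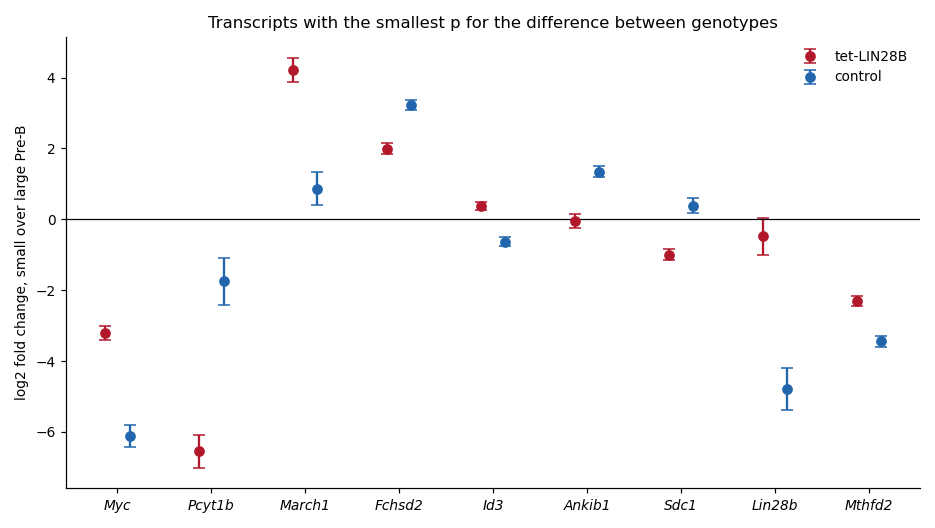
Log2 fold change of small over large Pre-B cells (vertical axis) in tet-LIN28B and control cells, each with its SE (error bars), for 9 of the 10 genes with the smallest p for the difference between genotypes. The other gene, Sh2d1b1, did not pass the filter in tet-LIN28B cells, the points of Pcyt1b and Lin28b rest on groups at or near 0 reads and depend on the pseudocount, and Myc fell by 3.20 in tet-LIN28B and by 6.11 in control cells.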

How the data were processed

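Poly-A RNA of sorted large and small Pre-B cells had been made into SMART-Seq v4 and Nextera XT libraries, sequenced on 2 kinds of instrument with no map of library to instrument. The submitters' processing notes name STAR 2.7.1, RSEM 1.28, DESeq2 and the build mm10. The deposited signal holds normalized counts, which the authors obtained by dividing counts by a size factor, with 1 table per stage. The authors' own fold changes and p-values were not used. The tables list 26095 symbols for small and 37851 for large cells and were joined on 23699 symbols, of which 1673 of 1861 altered by R were restored. The 13 columns were rescaled by median ratios over 13030 genes. Of 421527 low values, 99.9998% were whole reads within 0.1 read.

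limma 3.58.1 in R 4.3.3 (with a trend) was run on log2(value + 1), which understates changes of low genes, two-sided with Benjamini-Hochberg adjustment. Genes entered at 10 or more in at least 3 of the libraries compared. The control transition instead used the genes that entered for the tet-LIN28B transition. An SE is that of the fit. The difference between genotypes was an interaction over 4 groups. edgeR 4.0.16 and DESeq2 1.42.0 on recovered reads, other scalings, filters and pseudocounts were alternatives. The fits were tested on simulated data. The members, gene lists and tests were chosen with earlier results of these data known. Named genes came from a panel, the most changed genes, list members and 10 genes for the difference. The most changed were the 12 highest and 12 lowest called genes above a minimum mean whose stages did not overlap. Each list gave up to 4 called members by direction, those with the smallest adjusted p. Not all are printed. The labels call the libraries biological replicates. Lengths are median GENCODE M21 transcripts, matched for 99.5% of genes. Coordinates are RefSeq GRCm38.p6, the mm10 build. Read totals and floors cover counting error only, since PCR reads are not independent molecules. Overlapping or near-identical genes may share reads.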

Additional observations from a re-analysis of the deposited data

Results flagged for a closer look

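Among 119 named genes, the 4 tet-LIN28B large Pre-B libraries were examined for 1 library that stands apart, and 9 did so, where chance gives about 1 in 20. Replicate 3 stood apart for Cd5 (15.6 against 82.9 to 106 normalized counts), Cox7c (211 against 63.7 to 75.4), Ighd (1381 against 1177 to 1196), Pcyt1b (69.0 against 120 to 128) and Shmt1 (4523 against 3636 to 3690). Replicate 2 stood apart for Myc (2872 against 2043 to 2104) and Ube2s (5847 against 3841 to 4005), replicate 1 for Cish (8.41 against 43.1 to 54.7) and replicate 4 for Socs2 (449 against 847 to 911). Without replicate 2 the difference of Myc between genotypes was 3.03. The transition of Myc differed between the genotypes by 2.91 on the log2 scale, by the test of the interaction itself.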

How the results depend on the processing

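The 3532 higher and 3052 lower genes of the tet-LIN28B transition numbered 8968 and 1088 with values as deposited, 1901 and 1639 at 4-fold, and 1971 and 1868 with limma's treat test against 2-fold. The other alternatives stayed within 1.5 times. Leaving out 1 library gave 2605 to 3568 higher and 2731 to 2906 lower genes, and in controls 2961 to 3721 and 2899 to 3244. The difference between genotypes was called for 2 genes with quantile normalization, 2 with a pseudocount of 10, 2 without the 3 large libraries that hold almost no Y-linked reads (Igkv8-19 and March1, with Myc at adjusted p = 0.0752), 69 with DESeq2, and 0 to 5 when 1 library was left out. By the label codes, mice were taken to differ between stages, so equal replicate numbers were not read as pairs. Correlations of deviations between same-numbered libraries lay between -0.0108 and 0.0621. With a replicate block the difference was called for 2 genes and the transition for 3545 higher and 3030 lower.

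Of 119 named genes, 98 kept their direction and their call under every alternative other than the fold rules and the deposited scale. Direction turned with values as deposited for Arid3a (0.98), Igf2bp3 (0.57), Il7r (1.05), Irf4 (1.12), Lin28b (0.85), Sdc1 (0.35) and Ube2s (0.56). It turned with quantile normalization for Il7r (0.077) and Irf4 (0.15), and with the same total for Irf4 (0.036). After correction for length and GC content it turned for Arid3a (0.13), Hmga1 (-1.16), Irf4 (0.23), Rpa3 (-1.62) and Pttg1 (-0.28), and without the libraries that hold almost no Y-linked reads for Arid3a (0.14) and Rag2 (-0.0057). The cause of these turns was not tested. In the difference between genotypes, genes read near 0 in control small cells are limited by depth.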
